A study of Mus musculus with 12 samples.

Results

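Genes of protein folding in the endoplasmic reticulum (ER), Hspa5, Hsp90b1, Sdf2l1, Dnajb9, Calr, Canx, Pdia4, Ero1l, Herpud1 and Xbp1, were followed by messenger RNA level in mouse hearts at embryonic day 9.5. They were chosen by gene symbol as a fixed set of ER chaperones and folding stress genes, and all 10 were found among the 15663 genes listed for the 12 heart libraries. In hearts with both Asb2 alleles floxed the set did not move as a block. Ero1l was 3.78 to 4.15-fold higher than in hearts with 1 floxed allele, Hspa5, Calr and Sdf2l1 were lower, and Hsp90b1, Canx, Dnajb9 and Xbp1 did not pass the test in any comparison.

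The libraries fall into 4 genotype groups of 3 libraries each. The double mutant is labelled NkxCre.Asb2fl/fl.Flnafl/fl, with both Asb2 alleles floxed and floxed Flna. The Asb2 cKO (conditional knockout) is labelled NkxCre.Asb2fl/fl. The Flna-labelled group is NkxCre.Asb2fl/+.Flnafl/fl, with 1 floxed Asb2 allele, and the control is NkxCre.Asb2fl/+. All groups, the control included, therefore carry the NkxCre driver and at least 1 floxed Asb2 allele, and there is no group without them. The strain is given as C57/BL 6 and the tissue as heart, from which total RNA was taken. ASB2 is the substrate-binding subunit of a cullin ubiquitin ligase whose substrates include the filamins, and FLNA is filamin A, an actin crosslinker. The design sets loss of Asb2 against its heterozygous control with and without the floxed Flna alleles. The labels do not say whether a library is 1 heart or a pool, or whether libraries of a group came from separate embryos, so p-values measure the spread between libraries, which may be technical in part.

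Proteins that enter the secretory pathway fold in the ER lumen. The Hsp70-type chaperone BiP and its partners bind unfolded stretches, the lectin chaperones calreticulin and calnexin hold glycoproteins, and disulfide isomerases recharged by ERO1 oxidases form disulfide bonds. When unfolded protein builds up, the unfolded protein response (UPR) is switched on by 3 sensors in the ER membrane, ATF6, IRE1 and PERK. ATF6 and the spliced product of Xbp1 act on ER stress elements (ERSE) in chaperone promoters, and PERK acts through ATF4 and CHOP, the products of Atf4 and Ddit3. In the embryonic heart, calreticulin is known to be needed for normal development.

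Expression is given as CPM, read counts divided by a library size that the authors had scaled. Reads in listed genes numbered 25954539 to 42473118 per library, so that 1 read was worth 0.0239 to 0.038 CPM. Asb2 itself had 122, 121 and 153 CPM in double mutant libraries, 77.8, 163 and 115 CPM in Asb2 cKO libraries, 125, 113 and 197 CPM in Flna-labelled libraries, and 289, 183 and 218 CPM in control libraries. It was lower than in control hearts in double mutants (log2 fold change -0.78, SE 0.17, limma adjusted p = 0.00724) and in the Asb2 cKO (-0.99, SE 0.26, adjusted p = 0.0248), but it did not pass in the double mutant against the Flna-labelled group (-0.10, SE 0.21, adjusted p = 0.737). In the Flna-labelled group, labelled with 1 floxed Asb2 allele as the control is, it stood at -0.68 against control (SE 0.24, adjusted p = 0.334). Flna had 1012, 1012 and 1146 CPM in double mutant, 1032, 869 and 725 CPM in Asb2 cKO, 958, 1011 and 990 CPM in Flna-labelled and 490, 554 and 721 CPM in control libraries, so it was not lower where it is labelled as floxed. Reads counted over whole genes do not show whether a floxed exon is missing, so the Flna names, and the Asb2 genotype in the comparison of the double mutant with the Flna-labelled group, rest on the labels alone.

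Promoters are shown first because several of these genes are classical carriers of the ERSE. RefSeq windows of GRCm38.p6, from 250 bases before to 50 bases after the transcript start, were found for all 10 genes. The ERSE was searched on both strands as CCAAT and CCACG with 9 letters of any kind between them. It stood in 37 of 27025 gene windows (0.137%), among them those of 4 of the 10 genes, Hspa5, Hsp90b1, Calr and Canx. The 5 matches are printed 5′ to 3′ on the strand on which the motif reads, with its CCAAT and CCACG letters in capitals.
Hspa5 (chr2:34772025-34772043, gene strand): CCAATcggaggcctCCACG
Hsp90b1 (chr10:86705638-86705656, gene strand): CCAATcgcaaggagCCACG
Hsp90b1 (chr10:86705533-86705551, other strand): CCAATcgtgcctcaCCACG
Calr (chr8:84847075-84847093, other strand): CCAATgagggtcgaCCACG
Canx (chr11:50325800-50325818, gene strand): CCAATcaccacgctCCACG

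The edge of the match farthest from the gene lay 65 bases before the start of Hspa5, 212 and 107 bases before that of Hsp90b1, 162 bases before that of Calr and 145 bases before that of Canx. The gap of 9 letters between the boxes differed in every match. The shorter ERSE-II, ATTGG and CCACG with 1 letter between them, stood in 12 gene windows (0.0444%), and Herpud1 was the only one of the 10 genes to hold it. Herpud1 also held an ATF4-type element searched as TGATGNAA, which stood in 1219 windows (4.51%). The UPR element TGACGTGG, in 193 windows (0.714%), was in none of the 10. The core of the hypoxia response element was in 5 of the 10 as ACGTG, against 5886 windows (21.8%), and in 7 as GCGTG, against 9500 windows (35.2%). These letters can overlap an ERSE or ERSE-II match, so that a part is counted under both. ACGTG overlaps the ERSE-II of Herpud1, and GCGTG overlaps the ERSE matches of Hsp90b1, Calr and Canx. Such matches describe letters in a window and are not binding sites.

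The upstream regions of Calr, Herpud1 and Sdf2l1 are printed whole, since the gene that fell with an ERSE, the gene that fell without one and the gene that was higher with an ERSE-II differ in them. Each runs over the 250 bases before the RefSeq start on the gene's strand, in GRCm38.p6. Capitals mark the ERSE of Calr (read here on its opposite strand), the ATF4-type element and then the ERSE-II of Herpud1, and the single GCGTG of Sdf2l1, which held neither form of ERSE.
Calr (chr8:84846932-84847181, minus strand): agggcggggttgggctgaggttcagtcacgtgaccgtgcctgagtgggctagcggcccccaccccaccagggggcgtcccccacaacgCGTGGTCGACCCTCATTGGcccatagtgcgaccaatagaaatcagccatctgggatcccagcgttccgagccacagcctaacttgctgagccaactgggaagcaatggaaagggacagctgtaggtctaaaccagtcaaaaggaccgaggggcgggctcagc
Herpud1 (chr8:94386179-94386428, plus strand): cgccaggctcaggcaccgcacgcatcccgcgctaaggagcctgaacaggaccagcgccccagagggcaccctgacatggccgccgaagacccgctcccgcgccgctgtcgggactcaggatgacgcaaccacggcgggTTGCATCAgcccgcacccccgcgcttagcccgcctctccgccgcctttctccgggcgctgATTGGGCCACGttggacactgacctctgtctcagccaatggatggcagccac
Sdf2l1 (chr16:17132384-17132633, minus strand): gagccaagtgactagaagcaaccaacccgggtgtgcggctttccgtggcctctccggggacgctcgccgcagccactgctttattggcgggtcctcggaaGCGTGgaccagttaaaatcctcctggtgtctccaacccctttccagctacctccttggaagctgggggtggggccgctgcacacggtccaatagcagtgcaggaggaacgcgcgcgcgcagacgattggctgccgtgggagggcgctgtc

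**Figure D1:**
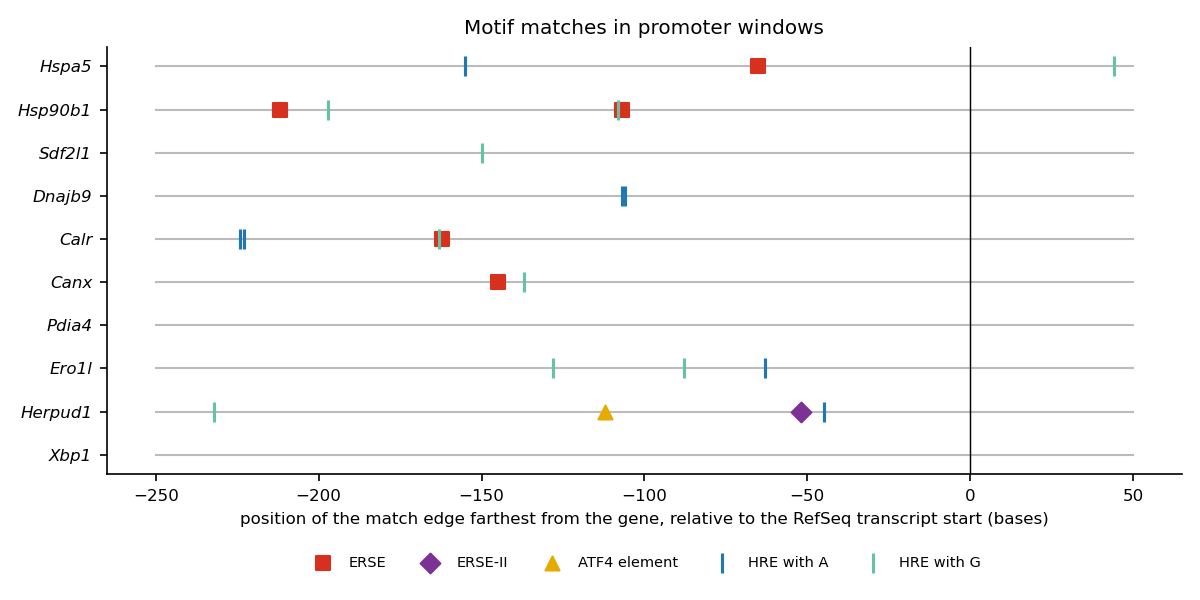
Motif matches in the promoter windows of the 10 ER folding genes, from 250 bases before to 50 bases after the RefSeq transcript start (horizontal axis, bases; each row is a gene). Squares are ERSE matches, the diamond ERSE-II, the triangle the ATF4-type element and ticks the ACGTG (HRE with A) and GCGTG (HRE with G) letters; ERSE matches lie in Hspa5, Hsp90b1, Calr and Canx, and Pdia4 and Xbp1 hold none of the letters searched.

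The next comparisons carry the Asb2 question and its Flna counterpart. In the double mutant against control, 2 of the 10 genes were higher (Ero1l and Herpud1) and 3 were lower (Hspa5, Calr and Sdf2l1), where 15.6% of the 14015 genes tested were higher and 16.7% lower. In the double mutant against the Flna-labelled group, the same 2 genes were higher and 4 were lower, Pdia4 joining the other 3, with 15.1% of 13954 genes higher and 16.3% lower. In the Asb2 cKO against control, 1 gene was higher (Ero1l) and 3 were lower (Hspa5, Calr and Sdf2l1), with 10.7% of 14034 genes higher and 10.9% lower. That count of 4 fell to 2, Hspa5 and Ero1l, without control library 2, a fit in which the calls over all genes fell from 3033 to 1581. In the Flna-labelled group against control, 0 of the 10 passed, none reached an unadjusted p of 0.05, and edgeR and DESeq2 also called 0. Over all 13891 genes, limma called 0.0288% higher and 0.0432% lower, edgeR called 2 genes and DESeq2 called 244.

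**Figure D2:**
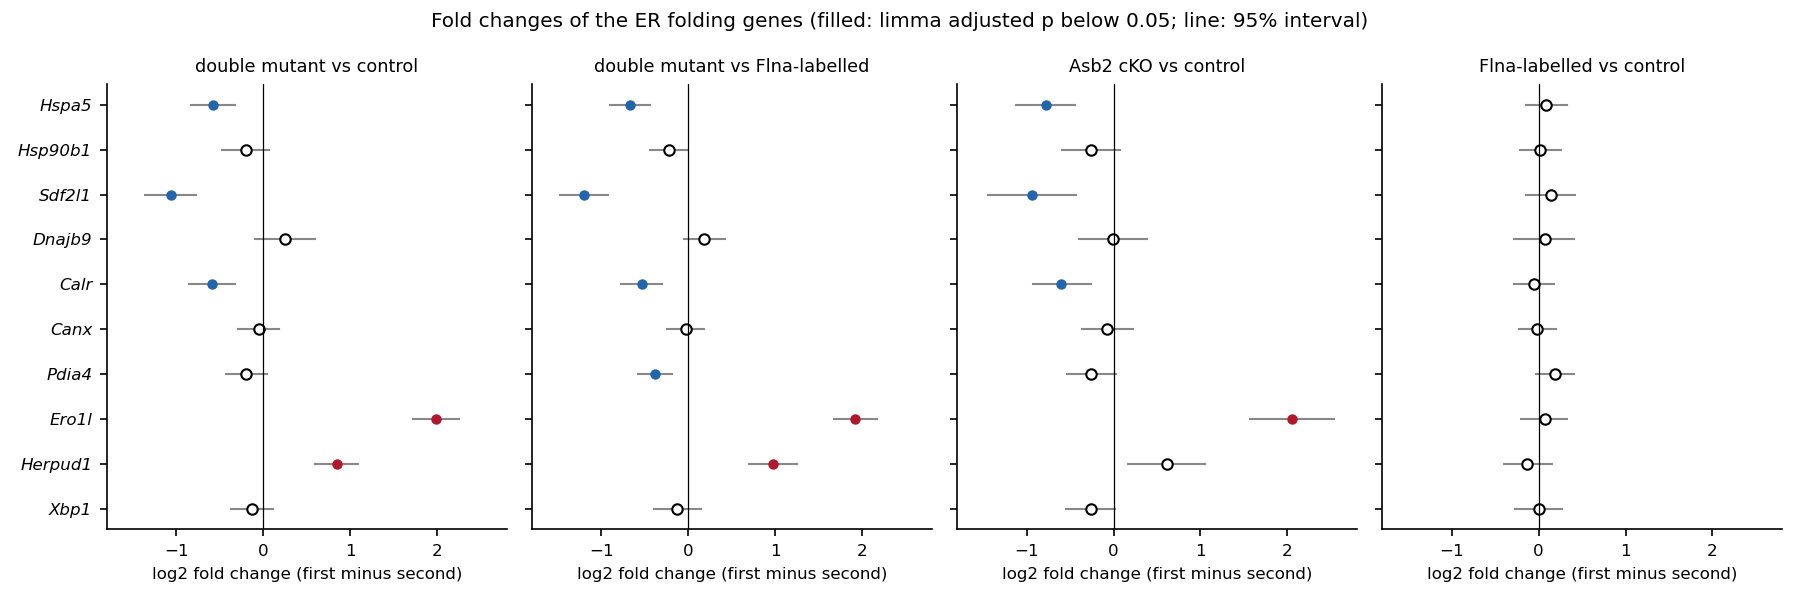
Log2 fold changes of the 10 ER folding genes in 4 comparisons (horizontal axis, first group minus second), with 95% intervals as lines. Filled points passed the limma test, blue when lower and red when higher; Ero1l lies near 2 in every comparison that sets Asb2 fl/fl against Asb2 fl/+, and every point of the Flna-labelled against control panel is open.

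The comparisons above that share the control libraries or the double mutant libraries are not independent. The Asb2 cKO against control and the double mutant against the Flna-labelled group share no library. Their calls had Ero1l in common on the higher side (1 of 2 calls in the double mutant comparison and 1 of 1 in the cKO comparison) and Hspa5, Calr and Sdf2l1 on the lower side (3 of 4 and 3 of 3). The calls shared over all genes were not counted. Nothing particular to ER genes is therefore read from these overlaps or from those of the lists below. The median log2 fold change over the 10 genes was -0.17 in the double mutant against the Flna-labelled group (all genes -0.02), -0.17 in the double mutant against control (all genes 0.01), -0.26 in the Asb2 cKO against control (all genes -0.01) and 0.04 in the Flna-labelled group against control (all genes 0.00). A lower level in whole hearts can be fewer cells of a type or less RNA per cell, and these cannot be told apart.

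Hspa5, on chromosome 2 (GRCm38 GENCODE M21, 34771970 to 34777547), encodes BiP, the central Hsp70 of the ER and the usual marker of the UPR. It had 1159, 1101 and 1151 CPM in double mutant, 1009, 850.9 and 1114 CPM in Asb2 cKO, 1899, 1673 and 1861 CPM in Flna-labelled and 1608, 1817 and 1664 CPM in control libraries. The 6 libraries with Asb2 fl/fl all lay below the 6 libraries with Asb2 fl/+, with no overlap. How many of all genes separated these libraries without overlap was not counted, here or for the genes below. The double mutant averaged 1137 ± 31.4 CPM, the Asb2 cKO 991.5 ± 133, the Flna-labelled group 1811 ± 121 and the control 1696 ± 108 (SD, n = 3 each). Against control, Hspa5 fell in double mutant hearts (log2 fold change -0.58, SE 0.11, limma adjusted p = 0.00488) and it fell against the Flna-labelled group (-0.67, SE 0.10, adjusted p = 0.00215). It also fell in the Asb2 cKO against control (-0.78, SE 0.15, adjusted p = 0.0069), a call kept in all 18 alternative settings, with adjusted p between 1.64e-06 and 0.0459.

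Sdf2l1, on chromosome 16 (17130138 to 17132383), encodes a small lumenal protein that works with ER Hsp40 co-chaperones in the BiP cycle. Its levels were 29.03, 26.15 and 32.56 CPM in double mutant, 36.26, 21.05 and 42.32 CPM in Asb2 cKO, 69.25, 60 and 74.6 CPM in Flna-labelled and 60.85, 69.59 and 54.79 CPM in control libraries. No Asb2 fl/fl library reached the lowest Asb2 fl/+ library, and the double mutant libraries were closer together than the cKO libraries. It had the largest fall of the 10 genes in each of the 3 comparisons of Asb2 fl/fl with Asb2 fl/+. The log2 fold change was -1.06 in the double mutant against control (SE 0.13, adjusted p = 0.000477), -1.20 against the Flna-labelled group (SE 0.12, adjusted p = 0.00041) and -0.94 in the Asb2 cKO against control (SE 0.23, adjusted p = 0.0175). In the cKO, Sdf2l1 missed the threshold when control library 2 was left out (-0.85, adjusted p = 0.0607) and in limma without trend and robust settings (-0.94, adjusted p = 0.0527), and its adjusted p ranged between 0.0018 and 0.0607 over 18 alternatives.

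Hsp90b1, on chromosome 10 (86690209 to 86705509), encodes GRP94, the Hsp90 of the ER lumen. It had 1520, 1501 and 1538 CPM in double mutant, 1419, 1348 and 1633 CPM in Asb2 cKO, 1768, 1701 and 1834 CPM in Flna-labelled and 1620, 1942 and 1690 CPM in control libraries. The double mutant lay below both Asb2 fl/+ groups, while the cKO overlapped the control by 1 library. The test was not passed in the double mutant against control (-0.20, 95% interval -0.47 to 0.07, adjusted p = 0.235), against the Flna-labelled group (-0.22, -0.44 to 0.00, adjusted p = 0.12) or in the Asb2 cKO against control (-0.26, -0.59 to 0.08, adjusted p = 0.245). DESeq2 called it lower in the double mutant against the Flna-labelled group (-0.20, adjusted p = 0.0457). Its exons overlap 3 other annotated genes and the strand of counting is not given in the sources used here, so a part of these reads may belong to them.

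Dnajb9, on chromosome 12 (44205559 to 44210326), encodes ERdj4, a BiP co-chaperone that is a classical target of spliced XBP1 and is known to hold IRE1 in check. It was the lowest of the 4 BiP system genes in control hearts on the per-length scale. It had 31.75, 31.29 and 35.96 CPM in double mutant, 26.66, 30.97 and 24.74 CPM in Asb2 cKO, 29.1, 28.33 and 29.35 CPM in Flna-labelled and 21.92, 31.75 and 30.22 CPM in control libraries. Double mutant libraries lay above the Flna-labelled ones and overlapped the control, and the cKO overlapped the control throughout. The log2 fold change was 0.25 in the double mutant against control (95% interval -0.10 to 0.60, adjusted p = 0.246), 0.18 against the Flna-labelled group (-0.05 to 0.42, adjusted p = 0.204) and -0.01 in the Asb2 cKO against control (-0.40 to 0.38, adjusted p = 0.961). With the level of Xist, the transcript that coats an inactive X chromosome, as a covariate it passed in the double mutant against control (0.52, adjusted p = 0.0392).

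The lectin chaperones parted. Calr, on chromosome 8 (84841850 to 84846934), encodes calreticulin, the soluble lectin chaperone that also stores calcium. It had 786.8, 733.4 and 852.5 CPM in double mutant, 824.9, 668.1 and 869.9 CPM in Asb2 cKO, 1188, 1072 and 1169 CPM in Flna-labelled and 1104, 1269 and 1190 CPM in control libraries. Every Asb2 fl/fl library lay below every Asb2 fl/+ library. Calr fell in the double mutant against control (-0.59, SE 0.12, adjusted p = 0.00504), against the Flna-labelled group (-0.53, SE 0.10, adjusted p = 0.00591) and in the Asb2 cKO against control (-0.60, SE 0.15, adjusted p = 0.0197). In the cKO, Calr missed the threshold when control library 2 (-0.55, adjusted p = 0.0779) or 3 (-0.60, adjusted p = 0.0508) was left out and with a replicate block (-0.60, adjusted p = 0.092), with adjusted p between 0.000509 and 0.092 over 18 alternatives. With the Xist level as a covariate the double mutant call against control was lost (-0.47, adjusted p = 0.0555). A pseudogene, Calr-ps, is annotated and may share reads with it.

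Canx, on chromosome 11 (50293961 to 50325673), encodes calnexin, the membrane-bound lectin chaperone of the same cycle. Its libraries overlapped across all 4 groups, at 850.9, 819.8 and 855 CPM in double mutant, 784.4, 830.2 and 878.9 CPM in Asb2 cKO, 836, 827.8 and 924.8 CPM in Flna-labelled and 845.4, 892.6 and 880.2 CPM in control hearts. The log2 fold change was -0.05 in the double mutant against control (95% interval -0.29 to 0.18), -0.03 against the Flna-labelled group (-0.25 to 0.18) and -0.07 in the Asb2 cKO against control (-0.36 to 0.22). Changes of the size seen for Calr lie outside these intervals.

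**Figure D3:**
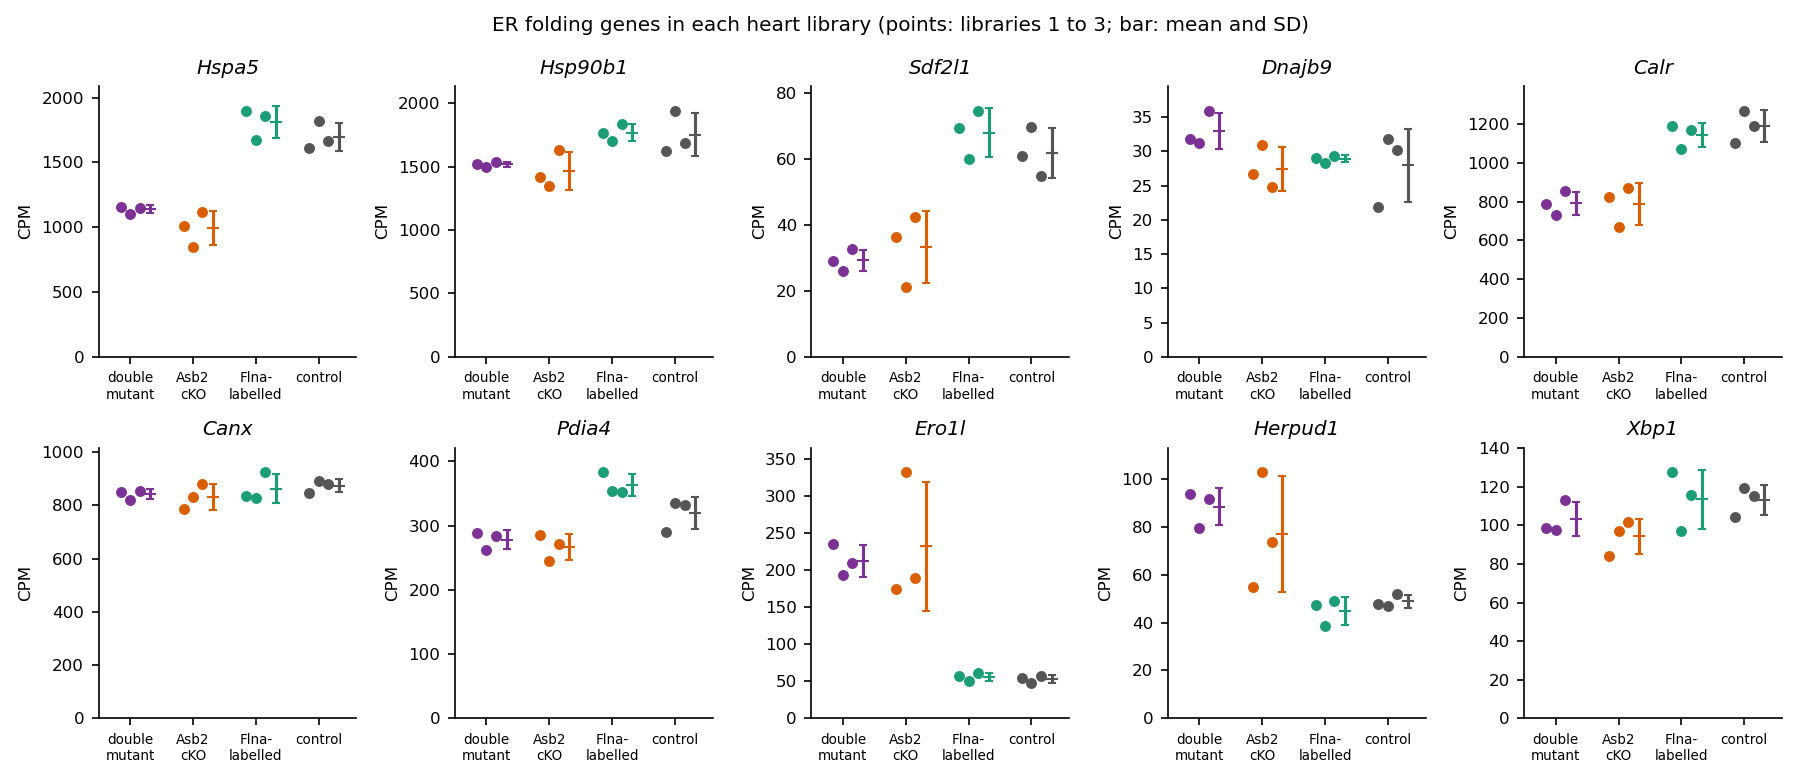
CPM of the 10 ER folding genes in each of the 12 libraries (points, libraries 1 to 3 of each group) with the mean and SD of the group beside them; every vertical axis starts at 0. Groups run from double mutant on the left to control on the right: Hspa5, Calr and Sdf2l1 are low and Ero1l is high in the 6 libraries with Asb2 fl/fl, and Canx is level.

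Among the genes of oxidative folding, Ero1l stood apart. Ero1l, on chromosome 14 (45283087 to 45318771), encodes ERO1-alpha, the oxidase that recharges protein disulfide isomerase and that is known as a target of both CHOP and hypoxia-inducible factors. It had 235.4, 192.9 and 209.4 CPM in double mutant, 173.7, 331.9 and 189.7 CPM in Asb2 cKO, 56.9, 49.95 and 60.61 CPM in Flna-labelled and 54.83, 47.66 and 57.39 CPM in control libraries. The lowest Asb2 fl/fl library was well above the highest Asb2 fl/+ library, and Asb2 cKO library 2 was the highest of all. The double mutant averaged 212.5 ± 21.4 CPM, the Asb2 cKO 231.8 ± 87.1, the Flna-labelled group 55.82 ± 5.41 and the control 53.3 ± 5.04 (SD, n = 3 each). The fitted fold was 3.96 in the double mutant against control (log2 1.99, SE 0.12, adjusted p = 5.41e-06), 3.78 against the Flna-labelled group (log2 1.92, SE 0.11, adjusted p = 3.82e-05) and 4.15 in the Asb2 cKO against control (log2 2.05, SE 0.22, adjusted p = 0.000343). The cKO call held in all 18 alternatives, with adjusted p between 6.34e-18 and 0.00614.

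Pdia4, on chromosome 6 (47796141 to 47813430), encodes ERp72, a disulfide isomerase found in complexes with BiP and GRP94. It had 288.6, 261.4 and 283.9 CPM in double mutant, 285.6, 245.3 and 270.8 CPM in Asb2 cKO, 383.2, 353.5 and 352.1 CPM in Flna-labelled and 290.2, 334.9 and 332.3 CPM in control libraries. All Asb2 fl/fl libraries lay below all Asb2 fl/+ libraries, by a narrow margin against the control. It fell in the double mutant against the Flna-labelled group (-0.38, SE 0.09, adjusted p = 0.0117), a call lost without Flna-labelled library 1 (-0.34, adjusted p = 0.0598) or double mutant library 2 (-0.34, adjusted p = 0.0569). It did not pass in the double mutant against control (-0.20, 95% interval -0.43 to 0.04, adjusted p = 0.182) or in the Asb2 cKO against control (-0.26, -0.54 to 0.03, adjusted p = 0.18). The Flna-labelled libraries all lay above the control libraries, but that difference did not pass (0.19, -0.03 to 0.41, adjusted p = 0.427).

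The last pair are stress response genes. Herpud1, on chromosome 8 (94386438 to 94395377), encodes HERP, an ER membrane protein of the degradation machinery that is induced through ATF6, XBP1 and ATF4. It had 93.85, 79.49 and 91.78 CPM in double mutant, 54.69, 102.9 and 73.73 CPM in Asb2 cKO, 47.24, 38.38 and 49 CPM in Flna-labelled and 47.79, 46.9 and 51.99 CPM in control libraries. Asb2 fl/fl libraries were all higher than Asb2 fl/+ libraries, and the cKO libraries spread widely, library 1 being close to the control. Herpud1 rose 1.8-fold in the double mutant against control (log2 0.85, SE 0.11, adjusted p = 0.000572) and 1.96-fold against the Flna-labelled group (log2 0.97, SE 0.12, adjusted p = 0.000866). In the Asb2 cKO against control it lay at the threshold (0.61, SE 0.20, adjusted p = 0.0513). It passed there in 7 of 18 alternatives, among them edgeR (0.66, adjusted p = 0.0441), DESeq2 (0.68, adjusted p = 0.0124) and the fit without Asb2 cKO library 1 (0.83, adjusted p = 0.0119), with adjusted p between 0.0119 and 0.134 over all of them. In the authors' deposited table for that pair Herpud1 had an FDR of 0.00423.

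Xbp1, on chromosome 11 (5520659 to 5525893), encodes the transcription factor whose messenger RNA is spliced by IRE1. Gene counts do not separate the spliced from the unspliced form. It had 98.55, 97.4 and 113.2 CPM in double mutant, 84.08, 97.31 and 101.6 CPM in Asb2 cKO, 127.6, 96.97 and 115.9 CPM in Flna-labelled and 104.5, 119.6 and 115.1 CPM in control libraries. The cKO libraries lay below the control libraries, and the double mutant overlapped both Asb2 fl/+ groups. No comparison passed, with -0.13 in the double mutant against control (95% interval -0.37 to 0.11), -0.13 against the Flna-labelled group (-0.40 to 0.14) and -0.26 in the Asb2 cKO against control (-0.55 to 0.02, adjusted p = 0.166).

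The order of levels changed with Asb2 genotype on a per-length scale, as CPM per kilobase of deposited gene length. Double mutant hearts had Hsp90b1 (353) before Hspa5 (327), Calr (269), Canx (129) and Pdia4 (113), followed by Ero1l (48.3), Herpud1 (34.4), Xbp1 (30), Sdf2l1 (26.5) and Dnajb9 (17.7). Libraries of neighbouring genes overlapped there between Herpud1 and Xbp1 and between Xbp1 and Sdf2l1. In the control, Hspa5 (488) led Hsp90b1 (407) and Calr (405), whose libraries overlapped, then came Canx (133) and Pdia4 (129), which also overlapped, Sdf2l1 (55.9), Xbp1 (32.9), Herpud1 (19.1), Dnajb9 (15) and, with libraries overlapping those of Dnajb9, Ero1l (12.1). Ero1l was thus last of 10 in the control and 6th in the double mutant, and Sdf2l1 was 6th in the control and 9th in the double mutant. The Asb2 cKO also had Hsp90b1 (341) ahead of Hspa5 (285), with overlapping libraries, and Ero1l (52.7) in 6th place, and the Flna-labelled group had Hspa5 first (521) and Ero1l last (12.7).

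Summed over the 10 genes, the level was 5093, 4844 and 5163 CPM in double mutant, 4699, 4526 and 5199 CPM in Asb2 cKO, 6404, 5900 and 6470 CPM in Flna-labelled and 5757, 6571 and 6066 CPM in control libraries. The sum was lower in every Asb2 fl/fl library than in any Asb2 fl/+ library. Hspa5 made up 22.29 to 22.75% of it in double mutant, 18.8 to 21.48% in Asb2 cKO, 28.35 to 29.66% in Flna-labelled and 27.44 to 27.94% in control libraries. Ero1l made up 3.98 to 4.62% in double mutant, 3.65 to 7.33% in Asb2 cKO, 0.85 to 0.94% in Flna-labelled and 0.73 to 0.95% in control libraries.

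The double mutant was compared with the Asb2 cKO to ask whether floxed Flna alters the picture. Xist had 0.0477, 0.546 and 9.34 CPM in double mutant, 571, 0.38 and 377 CPM in Asb2 cKO, 0.0506, 0.123 and 0.367 CPM in Flna-labelled and 0.823, 302 and 106 CPM in control libraries, so most libraries without floxed Flna had more of it than those with it. Xist level thus ran in part with the Flna label, here, in the Flna-labelled group against control and in the interaction. Its part in these results was not tested beyond the fits with Xist as a covariate, in which 0 of the 10 genes passed. Between double mutant and Asb2 cKO, none of the 10 genes passed, 0 also by edgeR and DESeq2 and 0 at an unadjusted p under 0.05. Over all 14037 genes tested, limma called 0.0142% higher and 0.00712% lower, edgeR called 4 genes and DESeq2 called 14. The differences ran from -0.13 for Sdf2l1 (95% interval -0.64 to 0.39) to 0.26 for Dnajb9 (-0.05 to 0.58), with -0.07 for Ero1l (-0.56 to 0.42), 0.24 for Herpud1 (-0.21 to 0.69), 0.21 for Hspa5 (-0.12 to 0.53) and 0.01 for Calr (-0.32 to 0.34). Dnajb9 was the gene whose double mutant libraries all lay above the cKO libraries. The intervals leave room for sizeable differences, most of all for Ero1l and Sdf2l1, whose cKO libraries spread most.

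The interaction sets the Asb2 difference with floxed Flna against the one without it. It called 0 of the 10 genes by limma, edgeR and DESeq2 (0 at an unadjusted p under 0.05). Over all 13981 genes, limma called 0% higher and 0% lower and edgeR called 0, while DESeq2 called 20 higher and 51 lower. Herpud1 had the highest estimate at 0.37 (95% interval -0.18 to 0.92) and Sdf2l1 the lowest at -0.27 (-0.90 to 0.36), with -0.13 for Ero1l (-0.73 to 0.46), 0.11 for Hspa5 (-0.25 to 0.47) and 0.07 for Calr (-0.30 to 0.44). Adjusted p lay between 0.623 and 0.94 for all 10. The call of Herpud1 in the double mutant and its miss in the cKO are thus not shown to differ.

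Other lumenal chaperones and foldases were read from a list of 32, of which 30 were tested. Against control, 3 rose and 10 fell in the double mutant (median -0.08, all genes 0.01), against the Flna-labelled group 3 rose and 9 fell (-0.10, all genes -0.02), and in the Asb2 cKO against control 2 rose and 7 fell (-0.12, all genes -0.01). The genes that fell in both comparisons without a shared library were Hyou1, Dnajb11, Dnajc3, Pdia3, Pdia6, Creld2 and Manf (7 of 9 in the double mutant and 7 of 7 in the cKO), and those that rose in both were Sil1 and Qsox1 (2 of 3 and 2 of 2). Over all genes tested, 15.6% were higher and 16.7% lower in the first of these comparisons, 15.1% and 16.3% in the second and 10.7% and 10.9% in the third, so the genes that rose were no larger a share of this list than of all genes. Of the genes that fell in both, Hyou1, an Hsp70 relative that exchanges nucleotide on BiP, averaged 190 ± 12.8 CPM in double mutant and 354 ± 4.08 CPM in Flna-labelled hearts (-0.90, SE 0.09, adjusted p = 0.000297). Its difference was smaller in the double mutant against control (-0.49, SE 0.10, adjusted p = 0.00616) and in the Asb2 cKO against control (-0.53, SE 0.15, adjusted p = 0.0277), and it stood at 0.41 in the Flna-labelled group against control (SE 0.09, adjusted p = 0.254). Dnajb11, a BiP co-chaperone, averaged 92.3 ± 9.21 CPM in Asb2 cKO and 186 ± 16 CPM in control hearts (-1.01, SE 0.13, adjusted p = 0.000892). Creld2, an ER stress-induced secretory protein, averaged 43.9 ± 4.22 CPM in double mutant and 90.2 ± 11.9 CPM in control hearts (-1.03, SE 0.13, adjusted p = 0.000496). Dnajc3, a BiP co-chaperone known to inhibit PERK, averaged 60.7 ± 5.41 CPM in double mutant and 126 ± 13.3 CPM in Flna-labelled hearts (-1.05, SE 0.11, adjusted p = 0.000462).

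Of the genes of this list that rose, Qsox1, a sulfhydryl oxidase, averaged 53.9 ± 7.71 CPM in double mutant and 25.5 ± 1.28 CPM in control hearts (1.06, SE 0.13, adjusted p = 0.000493). P4hb, protein disulfide isomerase and a subunit of collagen prolyl hydroxylase, averaged 1089 ± 41.8 CPM in double mutant and 819 ± 19.3 CPM in control hearts (0.41, SE 0.11, adjusted p = 0.0163). Sil1, a nucleotide exchange factor of BiP, averaged 26 ± 3.39 CPM in Asb2 cKO and 17.3 ± 2.1 CPM in control hearts (0.57, SE 0.17, adjusted p = 0.0338), a call lost in 4 of the 6 fits that leave out 1 library. When control library 1 was left out, 4 list genes passed in the cKO in place of 9, and 5 passed when either control library 2 or Asb2 cKO library 2 was left out. The cKO count was also 4 in limma without trend and robust settings, 5 with a replicate block and 14 in the joint fit of all 4 groups, and the double mutant count against control was 8 in place of 13 with the Xist level as a covariate. Over all genes, the 3033 cKO calls became 1771, 1581 and 2004 without control library 1, control library 2 and Asb2 cKO library 2. In those limma settings, the block and the joint fit they became 2117, 1557 and 4231.

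The list of UPR sensors and regulators held more genes that rose than fell. Against control, 12 of 21 tested genes rose in the double mutant and 1 fell (median 0.57, all genes 0.01), against the Flna-labelled group 10 of 20 rose and 1 fell (0.57, all genes -0.02), and in the Asb2 cKO against control 6 of 21 rose and 1 fell (0.45, all genes -0.01). Over all genes tested, 15.6%, 15.1% and 10.7% were higher in these comparisons, and 8, 9 and 14 genes of the list did not pass. With the Xist level as a covariate 8 rose and 0 fell in the double mutant against control. Of the sensor genes, Ern1 (IRE1) and Eif2ak3 (PERK) passed in none of these comparisons. Atf6 was higher in the double mutant against control (0.59, SE 0.15, adjusted p = 0.0138) and against the Flna-labelled group (0.73, SE 0.15, adjusted p = 0.00717). It did not pass in the Asb2 cKO against control (0.47, SE 0.20, adjusted p = 0.107). Mbtps2, Atf4, Ddit3, Atf3 and Trib3 rose in both comparisons without a shared library (5 of 10 and 5 of 6), and Atf6b fell in both (1 of 1 and 1 of 1). Ddit3, which encodes CHOP, averaged 37.3 ± 3.74 CPM in double mutant and 6.78 ± 0.255 CPM in control hearts (2.37, SE 0.14, adjusted p = 5.51e-06). Trib3, a pseudokinase induced by ATF4 and CHOP, averaged 98.4 ± 28.8 CPM in double mutant and 5.77 ± 1.86 CPM in Flna-labelled hearts (3.98, SE 0.27, adjusted p = 0.000135). Atf3, a factor induced downstream of ATF4, averaged 57.5 ± 7.97 CPM in double mutant and 8.8 ± 0.214 CPM in Flna-labelled hearts (2.63, SE 0.13, adjusted p = 2.32e-05). Chac1, a glutathione-degrading enzyme induced by ATF4, averaged 27.4 ± 10.1 CPM in double mutant and 0.637 ± 0.273 CPM in control hearts (4.59, SE 0.29, adjusted p = 8.33e-06), and it was not tested in comparisons with the Flna-labelled group. Its control level lay below the filter of 1 CPM, so it was tested against control only through the Asb2 fl/fl libraries. Its call, counted in the 12 and the 6 that rose, is therefore no separate support. The double mutant estimate ran from 3.43 to 5.42 over 17 alternatives. Atf6b, a relative of the sensor ATF6, averaged 59.4 ± 2.56 CPM in double mutant and 99 ± 8.15 CPM in Flna-labelled hearts (-0.73, SE 0.09, adjusted p = 0.00104). In the Asb2 cKO against control its fall was smaller (-0.48, SE 0.15, adjusted p = 0.039) and passed in 10 of 18 alternatives, with adjusted p between 0.0095 and 0.105.

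**Figure D4:**
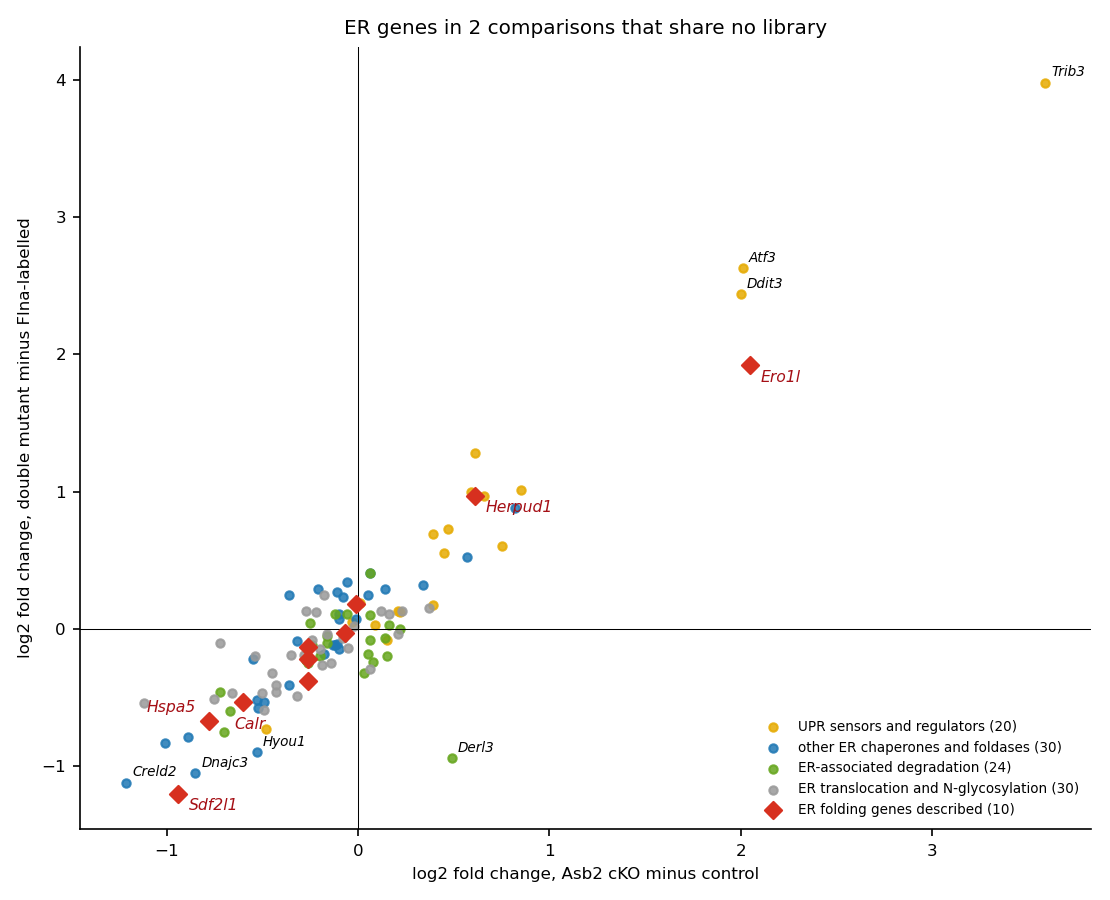
Log2 fold changes of ER genes in the double mutant against the Flna-labelled group (vertical) and in the Asb2 cKO against control (horizontal), which share no library. Each point is a gene, coloured by list with the number plotted in the legend; Ero1l, Herpud1, Trib3, Atf3 and Ddit3 lie at the upper right, and Sdf2l1, Hspa5, Calr, Creld2, Dnajc3 and Hyou1 at the lower left.

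Of 24 genes of ER-associated degradation, 0 rose and 3 fell in the double mutant against control, 1 rose and 4 fell against the Flna-labelled group, and 0 rose and 3 fell in the Asb2 cKO against control (medians -0.08, -0.15 and -0.09). With 16.7%, 16.3% and 10.9% of all genes lower and 15.6%, 15.1% and 10.7% higher, the falls were near the share of all genes and the rises below it. Vimp, Ube2g2 and Vcp fell in both comparisons without a shared library (3 of 4 and 3 of 3). Vcp, the ATPase that pulls substrates out of the ER membrane, averaged 173 ± 2.01 CPM in double mutant and 262 ± 6.46 CPM in Flna-labelled hearts (-0.60, SE 0.08, adjusted p = 0.00107). Ube2g2, a ubiquitin-conjugating enzyme of the pathway, averaged 43.2 ± 6.29 CPM in Asb2 cKO and 70.3 ± 5.99 CPM in control hearts (-0.70, SE 0.15, adjusted p = 0.00903). Erlec1, a lectin of the pathway and the 1 gene that rose, averaged 47.6 ± 4.61 CPM in double mutant and 35.8 ± 5.92 CPM in Flna-labelled hearts (0.41, SE 0.14, adjusted p = 0.0491), a call lost in 5 of 6 fits without 1 library. The count of 5 in the double mutant against the Flna-labelled group was 2 without Flna-labelled library 1, and 3 without Flna-labelled library 2 or without any 1 of the double mutant libraries.

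Of 30 tested genes of ER translocation and N-glycosylation, 0 rose and 9 fell in the double mutant against control, 1 rose and 9 fell against the Flna-labelled group, and 0 rose and 7 fell in the Asb2 cKO against control (medians -0.14, -0.17 and -0.23), where 16.7%, 16.3% and 10.9% of all genes were lower. Sec61a1, Srprb, Rpn1, Dad1 and Ostc fell in both comparisons without a shared library (5 of 9 and 5 of 7). Dad1, a subunit of the oligosaccharyltransferase, averaged 62.2 ± 5.43 CPM in double mutant and 109 ± 6.82 CPM in control hearts (-0.80, SE 0.11, adjusted p = 0.000716). Sec61a1, the channel of the translocon, averaged 217 ± 6.24 CPM in double mutant and 298 ± 17.1 CPM in Flna-labelled hearts (-0.46, SE 0.08, adjusted p = 0.00504). The count of 9 in the double mutant against control was 5 without control library 2, without double mutant library 2 or with the Xist level as a covariate, and 14 without control library 3. Over all genes, 1604 of 14019, 1484 of 13996 and 1536 of 14015 were lower in the fits that gave 5, in that order. The count of 10 against the Flna-labelled group was 5 without Flna-labelled library 2, and 6 without Flna-labelled library 1, double mutant library 2 or double mutant library 3. In the cKO 2 passed in place of 7 when control library 1, control library 2 or Asb2 cKO library 2 was left out, and 4 when Asb2 cKO library 1 was. The same count was 2 in limma without trend and robust settings and with a replicate block. Over all genes, the 3033 cKO calls became 1771, 1581, 2004 and 2508 in the fits without those libraries, in that order. They became 2117 in those limma settings and 1557 with the block.

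None of these 4 lists had a gene past the threshold between double mutant and Asb2 cKO, in the Flna-labelled group against control or in the interaction. At an unadjusted p under 0.05, limma gave 1, 1, 0 and 0 genes in the double mutant against the Asb2 cKO and 3, 3, 2 and 4 in the Flna-labelled group against control, for chaperones, degradation, regulators and translocation in that order. DESeq2 called 1 chaperone gene higher in the Flna-labelled group. The lists were assembled with earlier results of these data known, so their directions are no independent evidence.

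Genes that hold an ERSE in the window were also described as a set. Of the 37, 17 were tested, 4 of them among the 10 genes. Against control, 1 was higher and 5 lower in the double mutant (median -0.34, all genes 0.01), against the Flna-labelled group 1 was higher and 7 lower (-0.32, all genes -0.02), in the Asb2 cKO against control 1 was higher and 6 lower (-0.43, all genes -0.01), and in the Flna-labelled group against control 0 were called (median 0.10, all genes 0.00). Without the 4 genes described above, 13 remained, of which 3, 5 and 4 were lower and 1, 1 and 1 higher in the first 3 comparisons, where 16.7%, 16.3% and 10.9% of all genes were lower. These are few genes, and nothing particular to them is read from the counts. An ERSE did not go with a fall in each gene: Hspa5 and Calr fell and hold one, Hsp90b1 and Canx hold one and did not pass, and Sdf2l1 fell and holds none in this window.

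Markers of the cells a heart dissection can hold were summed per library. The 12 cardiomyocyte markers came to 27189 to 42960 CPM in double mutant, 23081 to 40254 in Asb2 cKO, 16680 to 31189 in Flna-labelled and 26490 to 40059 in control libraries, so the tissue label is borne out in all groups. Erythroid markers, 11 of 12 listed, came to 356 to 605 CPM in double mutant, 518 to 1219 in Asb2 cKO, 3110 to 3995 in Flna-labelled and 7549 to 8195 in control libraries. They were lower in every Asb2 fl/fl library than in any Asb2 fl/+ library. They were also lower in every Flna-labelled library than in any control library, 2 groups whose Hspa5 and Ero1l levels overlapped. The 10 endocardial markers came to 1341 to 1745, 1044 to 1535, 771 to 999 and 882 to 1061 CPM in the same order of groups. The part of erythroid and endocardial cells in the results was not tested.

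Of tissues rich in secretion, liver bud and yolk sac endoderm gave summed levels of 23.6 to 43.1 CPM in double mutant libraries, with Alb and Hnf4a at 0 in all 3, 31.6 to 146 in Asb2 cKO, 139 to 519 in Flna-labelled and 10 to 355 in control libraries. Mesenchyme and neural crest markers gave 884 to 1104, 964 to 1033, 1323 to 2002 and 1020 to 1744 CPM in the same order. Of the most abundant genes of this list, Col3a1 gave 120 to 179 CPM in double mutant, 113 to 175 in Asb2 cKO, 329 to 700 in Flna-labelled and 229 to 560 in control libraries. Tbx20 gave 284 to 527, 297 to 436, 243 to 489 and 352 to 468 CPM, with overlap between all groups. Markers of pharyngeal endoderm and surface ectoderm gave 340 to 576 CPM in double mutant and 430 to 591 in Asb2 cKO libraries, where 9 of 10 are listed, 231 to 420 in Flna-labelled and 225 to 295 in control libraries. The endoderm sum thus spread from 10 to 355 CPM within the control group alone. The part of these tissues in the results was not tested.

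With an FDR threshold of 0.05, the authors' deposited tables called 2 of the 10 genes up and 3 down in the double mutant against control, 2 up and 3 down in the Asb2 cKO against control, and 0 in the Flna-labelled group against control and between double mutant and Asb2 cKO. The gene called there and not by limma was Herpud1 in the cKO. The share of all genes that pass in the deposited tables was not counted, so nothing particular to the 10 genes is read from these counts.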

How the data were processed

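RNA was measured in 12 libraries of day 9.5 mouse hearts, 3 per genotype group. The submitters' processing notes name STAR, HTSeq, edgeR and mm10, without versions or settings. The authors deposited 4 tables, each for 1 pair of groups, with 15211, 15005, 15172 and 15124 genes, joined by gene identifier. Genes that a table leaves out were treated as missing, and 14810 genes are listed for every library. The deposited expression signal is named CPM, but columns sum to 942334 to 1051801. All values (100%) came out as whole reads within 0.01 read, so the signal is CPM on library sizes scaled by the authors. The plan had assumed plain CPM. Libraries standing in several tables agreed within 4.4e-06 CPM. Fold changes in the deposited tables are in log2, and their p-value and FDR columns are the authors' own. Numeric columns without a header, 12 in all, were not used.

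Groups were compared by limma 3.58.1 (trend, robust; R 4.3.3) on log2(CPM + 0.5), keeping genes whose mean reached 1 CPM, with Benjamini-Hochberg adjustment over all genes and a threshold of 0.05. Fold changes on this scale understate those of low genes. The interaction used all 12 libraries. On the recovered reads edgeR 4.0.16 called 2836 genes in the Asb2 cKO against control, where limma called 3033, and DESeq2 1.42.0 called 3816. The fits were tested on simulated counts with 200 changed genes.

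The 10 genes and the gene lists were chosen with earlier results of these data known. Named list genes are up to 3 per list, direction and comparison with the smallest p among those past the threshold, of which the text gives a part. Genes called in both comparisons that share no library, and the genes of the UPR sensors, were named after their values were seen. Deviations from the group means correlated at -0.46 to 0.43 between libraries of the same number and no pair of groups had all 3 above 0.1, so the numbers were not used as pairs. No 2 libraries of a group agreed within sampling noise (mean chi-square per gene 20.3 to 117). The motif search and figures used python 3.11.15, numpy 2.4.6, pandas 2.3.3, scipy 1.17.1 and matplotlib 3.10.9. Gene positions are from GENCODE M21 (GRCm38) and promoter windows from RefSeq (GRCm38.p6), with Ero1l found under its synonym Ero1a.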

Additional observations from a re-analysis of the deposited data

How the results depend on the processing

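Pseudocounts, filters, scaling, edgeR, DESeq2, other limma settings, a replicate block, a joint fit and leaving out each library were planned; removal of the trend over gene length and Xist as a covariate were chosen after seeing the data. Of 1130 values of the 10 genes under these alternatives, 1073 kept direction and side of the threshold, 8 lost a call, 9 gained one and 40 changed sign, 0 of them called. Leaving out 1 library gave 2 to 5 of the 10 genes in the Asb2 cKO against control. With the replicate block that count was 3 and the calls over all genes fell to 1557, against 3033; counts of the 10 in the other comparisons did not change. The numbers are not shown to pair the libraries. In the Asb2 cKO against control Dnajb9 changed sign at 0.00 (median of ratios), 0.12 (length trend removed) and within -0.18 to 0.09 without 1 library. In the Flna-labelled group against control, Xbp1 came to 0.01 (edgeR), 0.01 (DESeq2), 0.00 (length trend) and 0.13 (Xist), Hsp90b1 to -0.01 (length trend), and with Xist Calr came to 0.08, Canx to 0.05 and Ero1l to -0.01. Without 1 library the ranges there were Hsp90b1 -0.04 to 0.09, Canx -0.07 to 0.01, Dnajb9 -0.10 to 0.16, Xbp1 -0.09 to 0.11 and Ero1l -0.01 to 0.14. In the double mutant against the Asb2 cKO, Calr came to -0.00 (DESeq2), and with Xist Herpud1 came to -0.09 and Sdf2l1 to 0.32. Without 1 library the ranges there were Hsp90b1 -0.00 to 0.14, Pdia4 -0.00 to 0.11, Calr -0.10 to 0.09, Canx -0.02 to 0.06, Sdf2l1 -0.42 to 0.07 and Ero1l -0.24 to 0.22. In the double mutant against the Flna-labelled group Canx ran from -0.06 to 0.02, and in the interaction Hsp90b1 from -0.04 to 0.12, Calr from -0.05 to 0.14, Canx from -0.00 to 0.09 and Ero1l from -0.31 to 0.16. The cause was not tested.

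Calls over all genes moved by more than 1.5 times in these fits. The 3033 of the Asb2 cKO against control became 1771 and 1581 without control libraries 1 and 2, and 2004 without Asb2 cKO library 2. The 4523 of the double mutant against control became 2875 without double mutant library 2. The 4394 of the double mutant against the Flna-labelled group became 2805, 2776 and 2712 without Flna-labelled libraries 1 and 2 and double mutant library 2. The 10 of the Flna-labelled group against control became 2 (edgeR), 244 (DESeq2), 0 (no trend and robust), 1 (block), 2 (joint fit), 6 (length trend), 0 (Xist), 1, 1 and 0 without control libraries 1, 2 and 3, and 3 and 98 without Flna-labelled libraries 1 and 3. The 3 of the double mutant against the Asb2 cKO became 14 (DESeq2), 0 (joint fit) and 26 without Asb2 cKO library 2. The 0 of the interaction became 71 (DESeq2), 5 (Xist), and 18 and 1 without Asb2 cKO library 2 and Flna-labelled library 2. Among the lists, the degradation count became 5 in place of 3 with the length trend removed in the double mutant against control and in the Asb2 cKO against control, and 3 in place of 5 with Xist in the double mutant against the Flna-labelled group. Of the named list genes, 13 of 16, 13 of 18 and 11 of 15 kept their call in every alternative in the double mutant against control, the double mutant against the Flna-labelled group and the Asb2 cKO against control. Counting depth did not limit the 10 genes, since the lowest level, 21.05 CPM for Sdf2l1, is far above the value of 1 read.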

Other observations

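Within the Asb2 cKO group, library 2 lay at the extreme of most of these genes. Over all 12 libraries it had the highest Ero1l (331.9 CPM) and the highest Herpud1 (102.9 CPM), and the lowest Hspa5 (850.9 CPM), Calr (668.1 CPM), Sdf2l1 (21.05 CPM), Pdia4 (245.3 CPM) and Hsp90b1 (1348 CPM). Its Asb2 level, 163 CPM, was the highest of the Asb2 cKO group, whose other libraries had 77.8 and 115 CPM, and its Xist level was 0.38 CPM, against 571 and 377 CPM in those libraries. The spread of Ero1l, as the coefficient of variation, was 10.1% in the double mutant, 37.6% in the Asb2 cKO, 9.7% in the Flna-labelled group and 9.46% in the control (n = 3 each). This pattern was picked after the values were seen, and was not tested.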
